A study of Mus musculus with 12 samples.

Results

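The genes described here encode 10 neuropeptide precursors of the mouse lateral septum. They are Sst, Npy, Nts, Cartpt, Gal, Tac1, Tac2, Trh, Vip and Cck, taken by name from a table of 54532 genes. The 12 bulk RNA libraries came from lateral septum of wild-type (WT) mice labelled day 3, of which 6 had received CFA and 6 had received saline. CFA in pain studies usually stands for complete Freund's adjuvant, an emulsion injected to cause local inflammation. The labels name no strain, age, sex or injection site. They also do not say whether each library is a separate animal, and p-values therefore reflect only how far these samples scatter, part of which may be technical.

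Neuropeptides are made as long precursors that travel through the secretory pathway, are cut by proprotein convertases at basic residues, trimmed by carboxypeptidase E, often amidated at the C terminus, and stored in dense core vesicles. Once released they act at a distance, mostly through G protein-coupled receptors. The lateral septum is a forebrain nucleus of mostly GABAergic neurons that receives hippocampal input and projects to the hypothalamus, and subsets of its neurons are known for making somatostatin, neurotensin and other peptides.

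All 10 precursor genes were measured, all 10 passed the filter (at least 1 FPKM in at least 6 libraries), and 8 were at 1 FPKM or more in every library. FPKM is the number of fragments per kilobase of gene, scaled to the reads of each library. Levels can thus be compared between genes as far as the gene lengths used are right. None of the 10 passed the test between CFA and saline. Sst and Nts were the most abundant, and their levels varied little to moderately between libraries. Cck, Tac1, Vip, Npy and Cartpt varied several-fold between libraries of the same group. Tac1 and Cartpt followed the mean of a striatal projection neuron list over the 12 libraries. Cck and Vip were lowest in the 4 libraries lowest in a cortical and hippocampal excitatory neuron list.

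The promoters of 6 of these genes are shown: Cck and Vip, which were low in the same 4 libraries, Npy, which was lowest in 3 of them, Tac1 and Cartpt, which were high in the same 3 libraries, and Sst, the most abundant and steadiest. Each line gives the 120 bases before the RefSeq start, 5′ to 3′ on the gene's own strand. The RefSeq start can differ from the gene start in the deposited table. The windows of Cartpt and Tac1, and most of that of Sst, lie inside the gene bounds given below. The build is GRCm38.p6, and all 10 genes had an entry in the RefSeq table. Capitals mark the cAMP response element TGACGTCA and the E-box CACGTG. They also mark the shorter form of the response element, TGACG. On the other strand this reads CGTCA. The windows lie at chr9:121495695-121495814 on the minus strand for Cck, chr10:5639098-5639217 on the plus strand for Vip, chr6:49822590-49822709 on the plus strand for Npy, chr6:7554941-7555060 on the plus strand for Tac1, chr13:99900684-99900803 on the minus strand for Cartpt and chr16:23890845-23890964 on the minus strand for Sst.
Cck: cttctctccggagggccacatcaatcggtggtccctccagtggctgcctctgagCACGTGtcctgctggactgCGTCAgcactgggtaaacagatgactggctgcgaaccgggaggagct
Vip: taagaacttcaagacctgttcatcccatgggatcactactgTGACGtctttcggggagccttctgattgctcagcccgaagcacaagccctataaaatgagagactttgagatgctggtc
Npy: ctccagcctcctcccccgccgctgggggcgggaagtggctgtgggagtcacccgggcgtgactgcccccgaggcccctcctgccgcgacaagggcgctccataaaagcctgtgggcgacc
Tac1: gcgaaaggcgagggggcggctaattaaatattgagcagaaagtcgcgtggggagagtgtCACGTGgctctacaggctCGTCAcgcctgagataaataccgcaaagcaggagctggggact
Cartpt: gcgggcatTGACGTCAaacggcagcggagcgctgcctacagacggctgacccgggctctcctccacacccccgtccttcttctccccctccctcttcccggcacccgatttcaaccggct
Sst: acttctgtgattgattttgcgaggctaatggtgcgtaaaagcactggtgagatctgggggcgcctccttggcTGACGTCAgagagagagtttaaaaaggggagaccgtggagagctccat

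The motifs were searched on both strands in the whole RefSeq windows of 300 bases, 250 before and 50 after the start. TGACGTCA lay in 2 of the 10 windows, with its first base at -48 in Sst and -112 in Cartpt, and in 1.79% of all 32851 windows. The shorter TGACG, which lies in TGACGTCA on both strands and so is counted there too, was in 8 of the 10 windows and in 20.8% of all windows. Outside Sst and Cartpt it stood at -47 in Cck, -79 in Vip, -43 and -197 in Tac1, -96 in Trh, -166 in Nts and 20 bases after the start in Gal. CACGTG lay in 2 of the 10 windows, at -66 in Cck and -61 in Tac1, and in 7.15% of all windows. Cck and Tac1 thus both carried CACGTG upstream of a CGTCA, although their highest and lowest libraries differed. These matches describe letters only.

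Genes of a lateral septum neuron list were present in every library, and some marker genes of neighbouring regions were uneven between libraries. All 16 genes of the lateral septum neuron list passed the filter. Of these, Trpc4, a calcium-permeable cation channel gene, averaged 15.0 ± 1.66 FPKM in CFA and 16.5 ± 1.69 FPKM in saline libraries (SD, n = 6 each). The GABA-synthesising enzyme Gad2 averaged 155 ± 19.3 FPKM in CFA and 163 ± 13.8 FPKM in saline libraries. The summed level of that list was 599 to 794 FPKM in CFA and 670 to 798 FPKM in saline libraries. It includes genes of GABAergic neurons in general, such as Gad2, so the sum does not measure septal tissue alone. The summed striatal list, of which 15 of 17 genes passed the filter, was 299 to 597 FPKM (median 336) in CFA and 298 to 414 FPKM (median 323) in saline libraries. The summed cortical and hippocampal list, of which 13 of 16 passed, was 128 to 246 FPKM (median 159) in CFA and 108 to 233 FPKM (median 162) in saline libraries. Ttr, the transthyretin gene of the choroid plexus, was at 2259 FPKM in the library saline 3 and 701 FPKM in saline 5, against at most 66.6 FPKM elsewhere. Xist, the RNA of the inactive X chromosome, was above 1 FPKM in 5 CFA libraries (all but CFA 3) and in saline 2 and 5. The libraries without it, 1 of CFA against 4 of saline, were too few for a value within them. If Xist marks females, sex and treatment are partly confounded, and an effect of CFA and one of sex cannot be fully told apart in the comparisons that follow. With Xist status as a covariate limma called 0 of the 10 precursors.

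**Figure D1:**
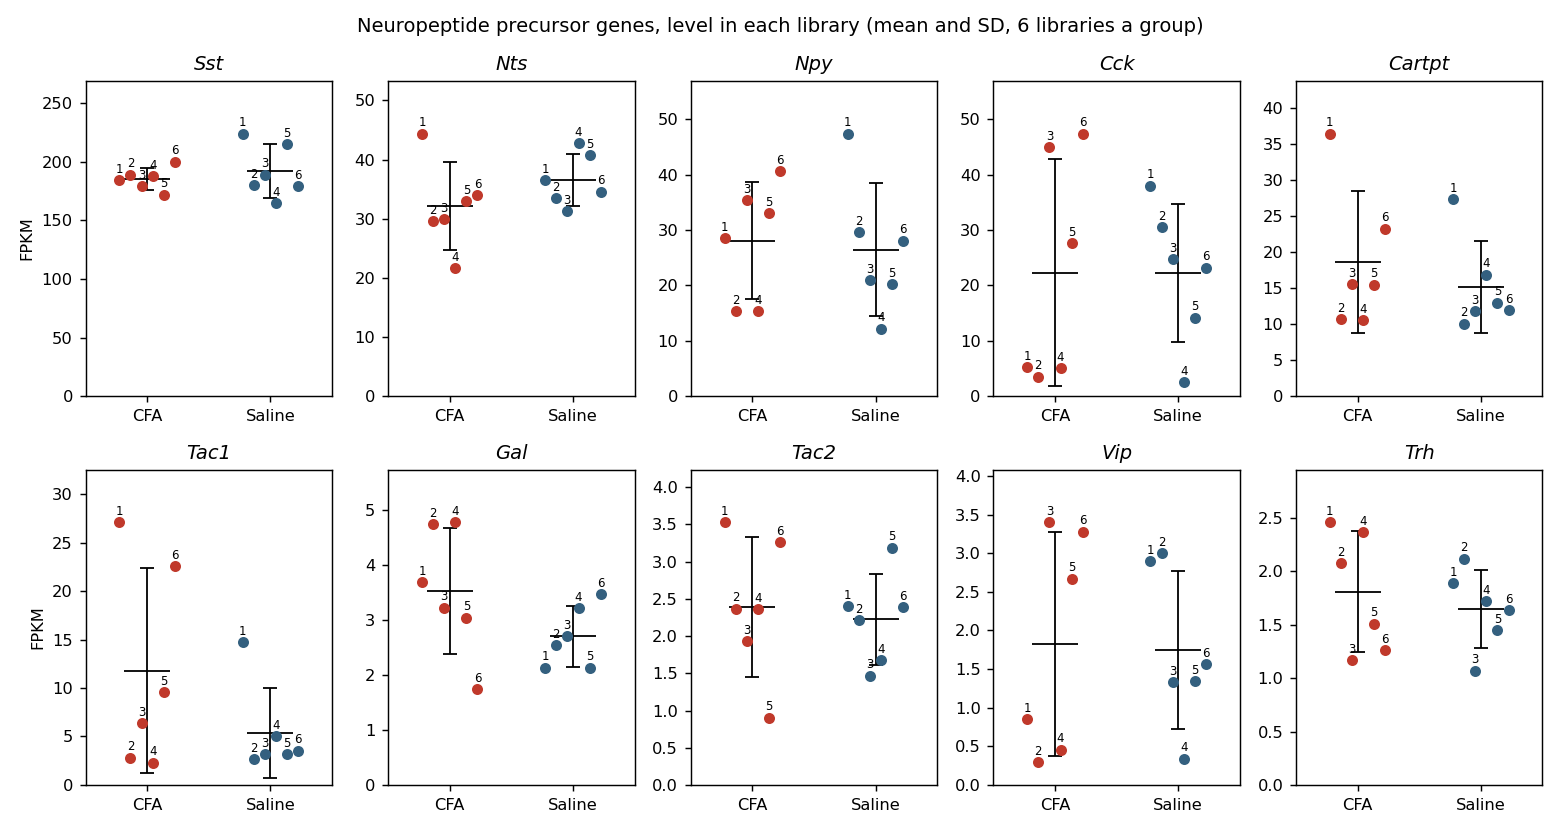
Level of each of the 10 precursor genes in FPKM (vertical axis, starting at 0, with a scale of its own in each panel) in the 6 CFA libraries (left, red) and the 6 saline libraries (right, blue). Points carry the replicate number, the long horizontal bar is the mean and the whiskers are 1 SD. The groups overlap in every panel, Sst stays between 165 and 224 FPKM, and Cck spans 2.5 to 47.4 FPKM.

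Sst encodes the precursor of somatostatin, an inhibitory peptide of many GABAergic neurons. It lies on chromosome 16 at bases 23889573 to 23890958 of the minus strand and has the identifier ENSMUSG00000004366. Sst stood at 172, 186 and 200 FPKM (lowest, median and highest) in CFA libraries, against 165, 185 and 224 FPKM in saline libraries. The 6 CFA values lay inside the range of the saline values, whose ends were saline 4 (lowest) and saline 1 (highest). The means were 185 ± 9.65 FPKM in CFA and 192 ± 22.8 FPKM in saline libraries (SD, n = 6 each). Sst had a log2 fold change of -0.042 (SE 0.07; limma, adjusted p = 0.936), and its 95% interval, as a ratio of CFA to saline, ran 0.874 to 1.08. The exact permutation test over all 924 assignments of the libraries gave p = 0.582, where the smallest p it can give is 0.00216. Sst was the steadiest of the 10, with a coefficient of variation of 9.0% over the 12 libraries, and ranked 121 by mean among the 13345 genes tested.

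Nts encodes the shared precursor of neurotensin and neuromedin N. It lies on chromosome 10 at bases 102481756 to 102490486 of the minus strand (ENSMUSG00000019890). Nts stood at 21.6, 31.4 and 44.4 FPKM in CFA libraries, against 31.3, 35.6 and 42.8 FPKM in saline libraries. CFA 2, 3 and 4 lay below the lowest saline library, while CFA 1 lay above the highest. The means were 32.1 ± 7.43 FPKM in CFA and 36.6 ± 4.41 FPKM in saline libraries. The log2 fold change of Nts was -0.21 (SE 0.13; limma, unadjusted p = 0.14, adjusted p = 0.766; exact permutation p = 0.195), with a ratio interval of 0.712 to 1.06. Adjusted for the striatal list mean, Nts gave -0.35 (SE 0.1), and the adjusted p of 0.318 was the lowest that any of the 10 genes reached in any of the 24 alternatives.

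Gal encodes the precursor of galanin. Its place is chromosome 19, bases 3409919 to 3414472 of the minus strand (ENSMUSG00000024907). Gal stood at 1.74, 3.45 and 4.77 FPKM in CFA libraries, against 2.13, 2.62 and 3.47 FPKM in saline libraries. CFA 1, 2 and 4 were above the highest saline library and CFA 6 was below the lowest. These values rested on 46 to 125 recovered reads per library. The means were 3.53 ± 1.15 FPKM in CFA and 2.7 ± 0.553 FPKM in saline libraries. The log2 fold change of Gal was 0.26 (SE 0.16; limma, unadjusted p = 0.132, adjusted p = 0.761; exact permutation p = 0.195), the smallest unadjusted p of the 10 genes, with a ratio interval of 0.94 to 1.53. Gal stayed above 0 on the log2 scale in every alternative, at 0.18 to 0.41, with adjusted p-values of 0.458 to 0.999.

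Tac1 encodes the precursor of substance P and neurokinin A, and in the striatum it is known from the projection neurons that carry the dopamine receptor Drd1. It lies on chromosome 6 at bases 7554879 to 7565834 of the plus strand (ENSMUSG00000061762). Tac1 stood at 2.31, 7.98 and 27.1 FPKM in CFA libraries, against 2.7, 3.34 and 14.7 FPKM in saline libraries. The high libraries were CFA 1 at 27.1, CFA 6 at 22.6 and saline 1 at 14.7 FPKM, and the groups overlapped. The means were 11.8 ± 10.5 FPKM in CFA and 5.38 ± 4.66 FPKM in saline libraries. Tac1 had the widest difference of the 10, a log2 fold change of 0.76 (SE 0.53; limma, adjusted p = 0.779; exact permutation p = 0.236), but its ratio interval ran 0.766 to 3.76. Only 17 of the 13345 tested genes varied more within groups on the log2 scale. Adjusted for the striatal list mean, the log2 fold change of Tac1 was 0.042 (SE 0.17).

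Cartpt encodes the precursor of the CART peptides, whose expression in striatum is known to respond to psychostimulants. Its place is chromosome 13, bases 99898489 to 99901091 of the minus strand (ENSMUSG00000021647). Cartpt stood at 10.6, 15.5 and 36.5 FPKM in CFA libraries, against 10.1, 12.5 and 27.4 FPKM in saline libraries. Its 3 highest libraries, CFA 1, saline 1 and CFA 6, were also the 3 highest in Tac1. The means were 18.7 ± 9.86 FPKM in CFA and 15.2 ± 6.4 FPKM in saline libraries. The log2 fold change of Cartpt was 0.23 (SE 0.29; limma, adjusted p = 0.898; exact permutation p = 0.504), and adjusted for the striatal list mean it was -0.16 (SE 0.1).

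Cck encodes the precursor of cholecystokinin, which cortical and hippocampal neurons make in quantity. It lies on chromosome 9 at bases 121489824 to 121495694 of the minus strand (ENSMUSG00000032532). Cck stood at 3.53, 16.4 and 47.4 FPKM in CFA libraries, against 2.5, 24.0 and 38.0 FPKM in saline libraries. CFA 1, 2 and 4 and saline 4 held 2.5 to 5.27 FPKM and the other 8 libraries held 14.2 to 47.4 FPKM, so both groups contained low and high libraries with nothing between. The highest library was 18.9 times the lowest, and only 5 of the 13345 tested genes had a larger spread within groups on the log2 scale. The means were 22.3 ± 20.6 FPKM in CFA and 22.2 ± 12.5 FPKM in saline libraries. The log2 fold change of Cck was -0.32 (SE 0.71; limma, adjusted p = 0.953; exact permutation p = 0.669), below 0 on this scale although the mean FPKM did not differ in that direction, and 3 of the 4 low libraries were CFA. Its ratio interval, 0.277 to 2.33, was the widest of the 10, and with the cortical list mean as a covariate the log2 fold change was -0.069 (SE 0.14).

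Vip encodes the precursor of vasoactive intestinal peptide, in cortex a product of interneurons. Its place is chromosome 10, bases 5639218 to 5647617 of the plus strand (ENSMUSG00000019772). Vip stood at 0.293, 1.76 and 3.4 FPKM in CFA libraries, against 0.341, 1.45 and 3.0 FPKM in saline libraries. The same 4 libraries that were low in Cck were low in Vip, at 0.293 to 0.851 FPKM, and the other 8 were at 1.33 to 3.4 FPKM. These values rested on 37 to 435 recovered reads per library. The means were 1.83 ± 1.45 FPKM in CFA and 1.75 ± 1.02 FPKM in saline libraries. The log2 fold change of Vip was -0.046 (SE 0.35; limma, adjusted p = 0.984; exact permutation p = 0.898), again of opposite sign to the difference of mean FPKM.

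Npy encodes the precursor of neuropeptide Y, made by interneurons in cortex, hippocampus and striatum. It lies on chromosome 6 at bases 49822710 to 49829507 of the plus strand (ENSMUSG00000029819). Npy stood at 15.3, 30.8 and 40.6 FPKM in CFA libraries, against 12.2, 24.5 and 47.4 FPKM in saline libraries. Saline 4, CFA 4 and CFA 2, which were low in Cck, were also the lowest in Npy, whereas CFA 1, likewise low in Cck, was at 28.5 FPKM. The means were 28.1 ± 10.6 FPKM in CFA and 26.4 ± 12.0 FPKM in saline libraries. The log2 fold change of Npy was 0.1 (SE 0.31; limma, adjusted p = 0.966; exact permutation p = 0.768), with a ratio interval of 0.681 to 1.69.

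Tac2, which encodes the precursor of neurokinin B, and Trh, which encodes that of thyrotropin-releasing hormone, were, like Vip, near the filter. Tac2 (ENSMUSG00000025400, chromosome 10, bases 127724478 to 127731768 of the plus strand) stood at 0.905, 2.36 and 3.53 FPKM in CFA libraries, against 1.47, 2.3 and 3.19 FPKM in saline libraries. Trh (ENSMUSG00000005892, chromosome 6, bases 92242061 to 92244650 of the minus strand) stood at 1.17, 1.8 and 2.46 FPKM in CFA libraries, against 1.07, 1.68 and 2.12 FPKM in saline libraries. The groups overlapped in both genes. Tac2 gave a log2 fold change of 0.04 (SE 0.19; limma, adjusted p = 0.978) and Trh one of 0.072 (SE 0.13; limma, adjusted p = 0.942). At 49 to 193 reads for Tac2 and 53 to 135 for Trh, counting error added to the spread more than it did for Sst, which had 3994 to 5847 reads.

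Over the 10 genes, limma called 0 at an adjusted p of 0.05, where 4 of the 13345 genes tested, 0.0300%, were called. None had an unadjusted p under 0.05, which 7.67% of all tested genes had, and voom on the recovered reads also called 0. In none were the groups without overlap, which held for 0.495% of all tested genes. Of the fold changes 6 were above 0 and 4 below, with a median of 0.056 on the log2 scale against -0.0043 over all tested genes. At 0 of 10 the shares do not stand apart from the background. The ratio intervals of Sst, Nts, Gal, Tac2 and Trh lay between 0.712 and 1.53, while that of Cck reached down to 0.277 and that of Tac1 up to 3.76. These are ratios of FPKM plus 1, which narrows the intervals of low genes such as Gal, Tac2, Vip and Trh. Voom on the recovered reads gave log2 fold changes of 0.35 (SE 0.24) for Gal, 0.031 (SE 0.29) for Tac2 and 0.11 (SE 0.22) for Trh. For Vip it gave -0.22 (SE 0.64), against -0.046 (SE 0.35) in the main fit. The median spread of all tested genes within groups was an SD of 0.119 on the log2 scale, against 0.13 for Sst, 0.255 for Trh, 0.259 for Nts, 0.32 for Gal, 0.37 for Tac2, 0.576 for Cartpt, 0.611 for Npy, 0.705 for Vip, 1.07 for Tac1 and 1.43 for Cck.

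**Figure D2:**
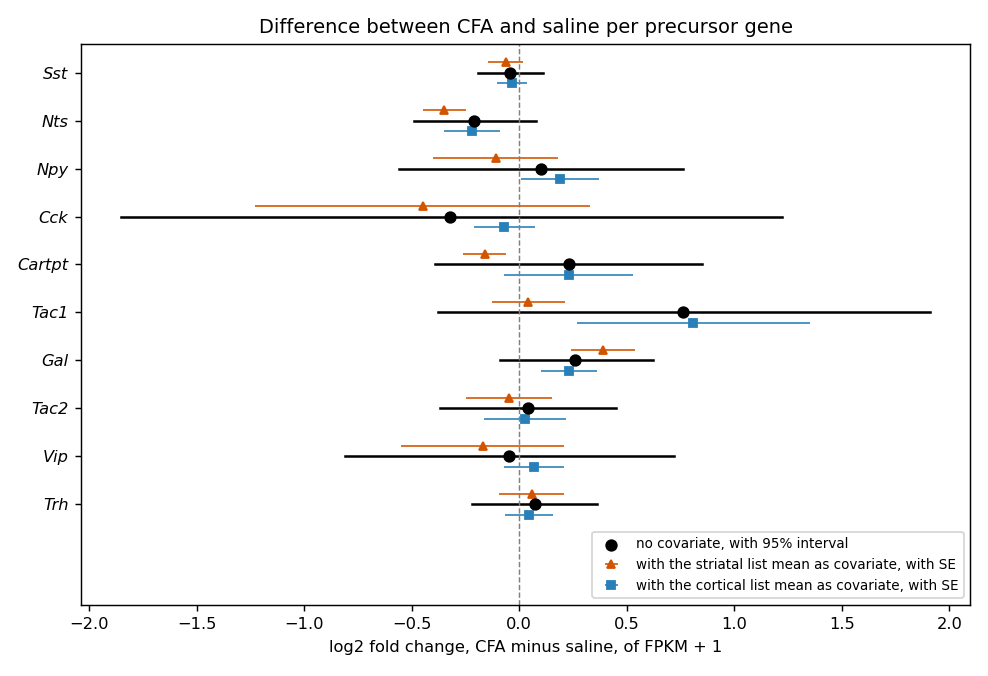
Difference between CFA and saline in each precursor gene, as log2 fold change of FPKM + 1 (horizontal axis), from limma without a covariate (black circles, 95% interval) and with the mean of the striatal (orange triangles) or the cortical and hippocampal list (blue squares) as a covariate, with SE. Every black interval crosses 0, Cck and Tac1 have the widest, and the point for Tac1 lies at 0.76 without a covariate and at 0.042 with the striatal one.

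By mean level over the 12 libraries the order was Sst (189 FPKM), Nts (34.3), Npy (27.3), Cck (22.3), Cartpt (16.9), Tac1 (8.59), Gal (3.11), Tac2 (2.31), Vip (1.79) and Trh (1.73 FPKM). Sst was 5.51 times the next gene, above it in 12 of 12 libraries, with ranges that did not overlap. Cartpt was above Tac1 in 12 of 12 libraries, although the ranges overlapped. Every other pair of neighbours overlapped and changed places in some libraries. Nts exceeded Npy, Npy exceeded Cck, and Cck exceeded Cartpt in 8 of 12 libraries each, and Vip exceeded Trh in 6 of 12. The order rests on the gene lengths in the deposited table, such as 3399 bases for Tac1, 3402 for Vip and 1277 for Cartpt. By recovered reads Tac1 was above Cartpt in CFA 1 (3656 against 1849) and below it in saline 2 (350 against 493).

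The genes were next set against 2 cell type lists, over 20 relations with p-values adjusted over all of them. These lists were chosen with earlier results of these data known, and the adjustment does not cover the cell type lists left out. Tac1 followed the mean of the striatal projection neuron list over the 12 libraries, with a Pearson r of 0.97 (permutation p = 2e-05, adjusted p = 0.0004) and a Spearman rho of 0.89 (permutation p = 0.00029, adjusted p = 0.0029). Without the 2 libraries farthest from the median, the r of Tac1 was 0.94. Cartpt gave an r of 0.94 (permutation p = 5e-05, adjusted p = 0.0005) and a rho of 0.91 (permutation p = 9e-05, adjusted p = 0.0018), and an r of 0.89 without the 2 farthest. Both relations held inside each group, with r of 0.97 in CFA and 0.96 in saline libraries for Tac1, and 0.96 in CFA and 0.99 in saline libraries for Cartpt. Among the other 8 genes the striatal r ran no higher than 0.51 for Nts (adjusted p = 0.229 by permutation), and Sst had 0.16. The striatal list holds neither Tac1 nor Cartpt.

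The mean of the cortical and hippocampal list left a gap. CFA 1, 2 and 4 and saline 4 were at or below 2.38 on the log2(FPKM + 1) scale and the other 8 libraries at or above 2.76, so relations were computed over these 8 alone. Cck was related to the list there, with an r of 0.91 (exact permutation p = 0.00171, adjusted p = 0.0114) and a rho of 0.86 (exact permutation p = 0.0107, adjusted p = 0.0535), which missed 0.05 after adjustment. Without the 2 farthest libraries the r of Cck was 0.76. Vip had an r of 0.8 (exact permutation p = 0.0186, adjusted p = 0.093) and Npy one of 0.75 (exact permutation p = 0.0303, adjusted p = 0.121), neither past 0.05 after adjustment. Between the 2 sets of libraries the ranges of Cck and of Vip did not overlap, and those of the other 8 genes did. The share of all tested genes without overlap between these sets was not computed, so the separation cannot be called particular to Cck and Vip. Gal stood at 3.21 to 4.77 FPKM in the 4 libraries low in the list and at 1.74 to 3.47 FPKM in the other 8, and within the 8 it had an r of -0.04 (adjusted p = 0.926 by exact permutation).

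**Figure D3:**
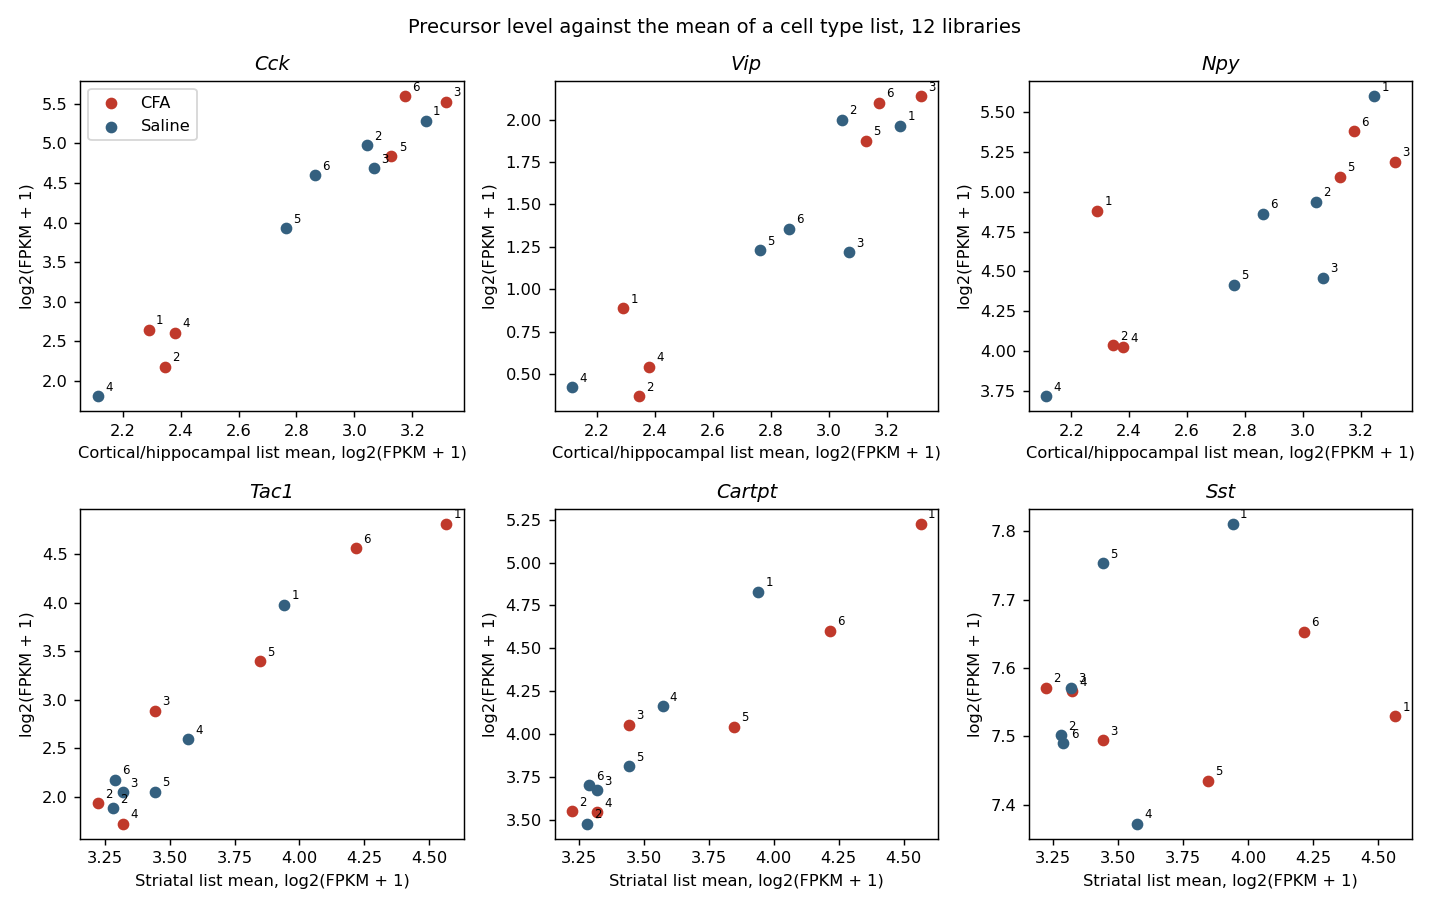
Level of 6 precursor genes (vertical axis, log2 of FPKM + 1) against the mean of a cell type list in the same library (horizontal axis, log2 of FPKM + 1), in CFA (red) and saline libraries (blue), numbered by replicate. Cck and Vip lie low in the 4 libraries left of the gap in the cortical list, Tac1 and Cartpt climb with the striatal list with r of 0.97 and 0.94, and Sst shows no such relation (r = 0.16).

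In bulk tissue fewer cells of a type and less RNA per cell cannot be told apart, and the part that striatal or cortical tissue beside the septum had in these levels was not tested. Some values bear on it. Slc17a7, the vesicular glutamate transporter of cortical and hippocampal excitatory neurons, stood at 4.7, 5.01 and 5.22 FPKM in CFA 1, 2 and 4 and at 2.38 FPKM in saline 4, against 18.5 to 78.7 FPKM in the other 8 libraries. Drd1 stood at 17.8 FPKM in CFA 1, 13.2 FPKM in CFA 6 and 9.96 FPKM in saline 1, against 8.02 FPKM in CFA 5 and 3.11 to 5.58 FPKM in the remaining libraries. CFA 1 was thus the highest library in the striatal list and among the lowest in the cortical one. Slc17a7 and Drd1 were named after their values were seen, and not all genes of the 2 lists varied so widely. Wfs1, the cortical list gene highest by mean, ran 39.5 to 59.5 FPKM in CFA and 40.3 to 56.2 FPKM in saline libraries. Tmem158, its striatal counterpart, ran 84.4 to 116 FPKM in CFA and 96.0 to 115 FPKM in saline libraries. Neurod6 of the cortical list ran 0.0 to 7.99 FPKM in CFA and 0.0276 to 7.71 FPKM in saline libraries. Of the 15 tested striatal genes 13 had a fold change above 0, with a median of 0.35 on the log2 scale and 0 called, and of the 13 tested cortical genes 5 were above 0, with a median of -0.013 and 0 called. At an unadjusted p under 0.05 limma had 1 striatal and 0 cortical genes. Other lists were as one-sided, against 48.0% of all tested genes above 0. Of the lateral septum list 15 of 16 genes were below 0 (median -0.12), of a pan-neuronal list 15 of 16 (median -0.074, 4 at an unadjusted p under 0.05) and of a medial septum cholinergic list 8 of 9 (median -0.17), while 8 of 8 oligodendrocyte genes were above 0 (median 0.15). In each of these limma called 0.

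**Figure D4:**
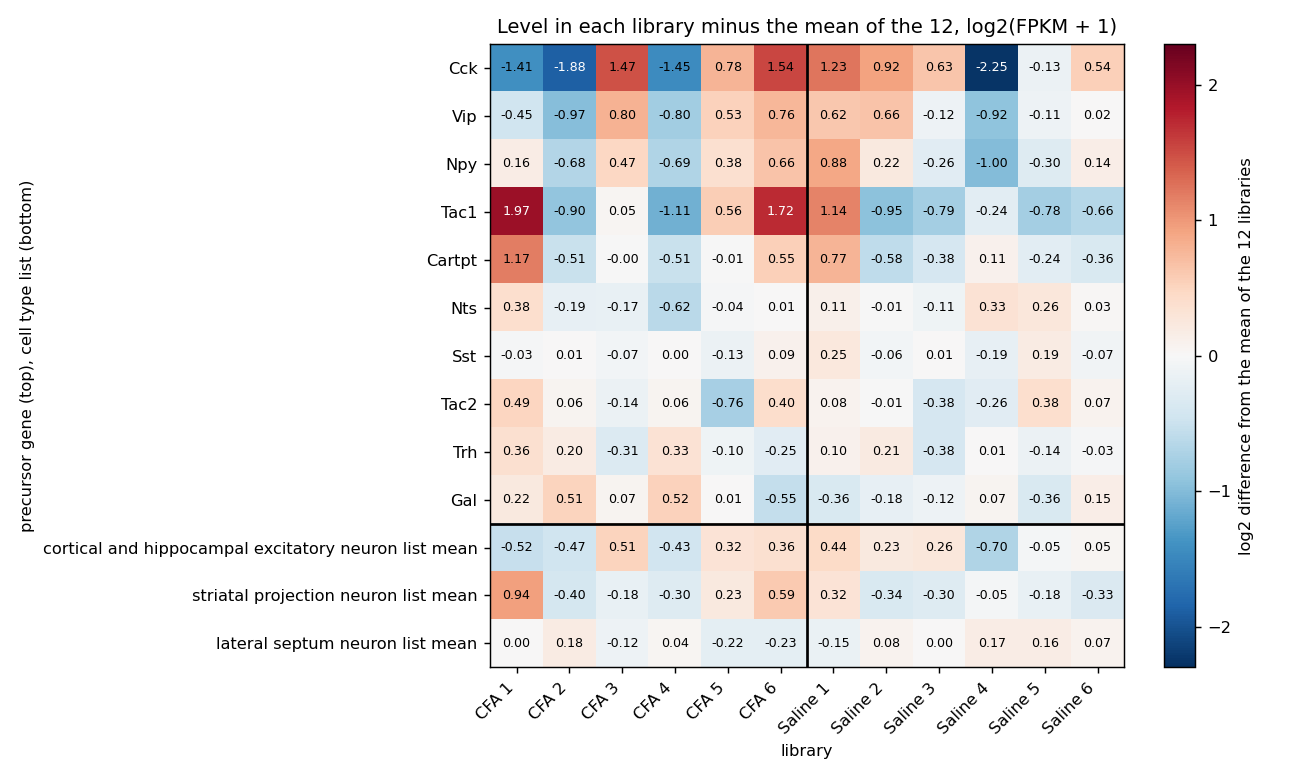
Level of each precursor gene (upper rows) and mean of 3 cell type lists (lower rows) in each library, as the difference from the mean of the 12 libraries in log2(FPKM + 1) units (red above, blue below), with the 6 CFA libraries on the left and the 6 saline libraries on the right. Tac1 and Cartpt are highest in CFA 1, CFA 6 and saline 1, as is the striatal list, and Cck and Vip are lowest in CFA 1, 2 and 4 and saline 4, as is the cortical list.

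Genes most like each precursor were sought among the tested genes, by Pearson r of log2(FPKM + 1) over the 12 libraries. Left out were the 10 themselves, symbols of Gm and a number, symbols ending in Rik and bare Ensembl identifiers. The closest were as follows. For Cck they were Slc17a7 (r = 0.994) and Neurod2 (0.984), a transcription factor of excitatory neurons, and for Vip Rtn4rl2 (0.977), a Nogo receptor homologue, and Neurod6 (0.973), another such factor. For Tac1 they were Drd1 (0.983) and Filip1 (0.973), a filamin-binding protein, and for Cartpt Adamts3 (0.957), a metalloprotease, and again Drd1 (0.957). For Npy they were Lmo3 (0.957), a LIM-domain regulator, and Tpm3 (0.941), a tropomyosin. The closest were less close for Trh (Hsdl1, 0.922, and Tbc1d16, 0.902), Nts (Taf11, 0.892, and Hdgfl3, 0.891), Sst (Mrpl28, 0.881, and Mllt1, 0.853), Gal (Ankrd39, 0.856, and Slc8a3, 0.85) and Tac2 (Fbxo38, 0.842, and Trim62, 0.837). With so many genes searched over 12 libraries, high values are found for any gene. For Cck and Vip the values take in the gap between low and high libraries, and values without it were not computed.

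The receptors of these peptides ranged widely in level, and none of those tested passed the threshold between the groups. Of 25 receptor genes 17 passed the filter, 5 with a fold change above 0 and 12 below, with a median of -0.032 on the log2 scale. Limma called 0 and had 1 of 17 at an unadjusted p under 0.05, where 7.67% of all tested genes had such a p. That gene was the somatostatin receptor Sstr5. Sstr5 averaged 3.16 ± 0.377 FPKM in CFA and 3.97 ± 0.289 FPKM in saline libraries, a log2 fold change of -0.26 (SE 0.07; unadjusted p = 0.00158, adjusted p = 0.285). Its ranges, 2.62 to 3.75 FPKM in CFA and 3.54 to 4.19 FPKM in saline libraries, overlapped. Next by p came the neuropeptide Y receptor Npy2r (-0.2, adjusted p = 0.717), Sstr3 (-0.096, adjusted p = 0.779) and the TRH receptor Trhr (0.22, adjusted p = 0.779).

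The most abundant tested receptor of somatostatin was Sstr2, at 11.0 ± 2.01 FPKM in CFA and 11.3 ± 1.25 FPKM in saline libraries. For neurotensin it was the sorting receptor Sort1 at 47.3 ± 4.68 FPKM in CFA and 47.9 ± 3.13 FPKM in saline libraries, followed by Ntsr2, a G protein-coupled receptor, at 39.3 ± 4.12 FPKM in CFA and 40.2 ± 4.04 FPKM in saline libraries. For 6 other receptors the level was lower. Over the 12 libraries Npy2r averaged 5.0 FPKM, the cholecystokinin receptor Cckbr 4.24, the galanin receptor Galr1 3.25, Trhr 2.81, the neurokinin B receptor Tacr3 2.45 and the substance P receptor Tacr1 1.81 FPKM. Vipr1 and Vipr2, the receptors of vasoactive intestinal peptide, averaged 0.755 and 0.253 FPKM and did not pass the filter, while Adcyap1r1, the PACAP receptor that binds this peptide weakly, averaged 71.2 FPKM. Gpr160, proposed as a CART receptor, averaged 0.195 FPKM.

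The machinery that cuts and stores the precursors included some of the most abundant genes named here, and none of it passed the threshold. Carboxypeptidase E, Cpe, averaged 1129 ± 78.0 FPKM in CFA and 1133 ± 61.3 FPKM in saline libraries, with a log2 fold change of -0.0056 (SE 0.06; limma, adjusted p = 0.987). Of 18 processing and vesicle genes 17 were tested, 5 above 0 and 12 below, with a median of -0.01, 0 called by limma and 3 at an unadjusted p under 0.05, against 7.67% of all tested genes. Those 3 were the convertase Pcsk1, the granin Chga and the convertase inhibitor Pcsk1n. Pcsk1 averaged 9.73 ± 1.6 FPKM in CFA and 7.22 ± 0.998 FPKM in saline libraries, a log2 fold change of 0.38 (SE 0.1; unadjusted p = 0.00258, adjusted p = 0.308). Chga averaged 74.0 ± 6.22 FPKM in CFA and 84.2 ± 3.76 FPKM in saline libraries, a log2 fold change of -0.19 (SE 0.06; unadjusted p = 0.00475, adjusted p = 0.379). Pcsk1n gave -0.15 (adjusted p = 0.65), and the granin-like Vgf, next by p, -0.082 (adjusted p = 0.76). The groups overlapped in each of the 17 genes.

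Of 14 peptide-degrading enzymes 9 were tested, 2 above 0 and 7 below, with a median of -0.044, 0 called by limma and 0 at an unadjusted p under 0.05. The smallest p-values belonged to the pyroglutamyl peptidase Pgpep1 (-0.13, adjusted p = 0.718), the angiotensin-converting enzyme Ace (-0.54, adjusted p = 0.72), the insulin-degrading enzyme Ide (-0.074, adjusted p = 0.779) and the puromycin-sensitive aminopeptidase Npepps (-0.044, adjusted p = 0.846). Ace averaged 2.64 ± 0.374 FPKM in CFA and 5.2 ± 4.61 FPKM in saline libraries (SD, n = 6 each). It stood at 14.3 FPKM in saline 3 and 5.66 FPKM in saline 5, the libraries high in Ttr, and the saline mean was 3.38 FPKM without saline 3 and 2.81 FPKM without both. The mean of the degrading enzyme list, in which Ace is 1 of the 9 tested genes, was highest in these libraries. That mean was not computed without Ace, and the part of choroid plexus in it was not tested.

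Of 31 other neuropeptide precursors 12 were tested, 7 above 0 and 5 below, with a median of 0.057, 0 called by limma and 0 at an unadjusted p under 0.05. The smallest p-values were those of Adcyap1, the PACAP precursor (0.33, adjusted p = 0.699), Nucb2, the nesfatin precursor (-0.084, adjusted p = 0.779), Pdyn, the dynorphin precursor (0.49, adjusted p = 0.819), and Pomc, the proopiomelanocortin gene (-0.32, adjusted p = 0.825). Pdyn stood at 34.5 FPKM in CFA 1, 23.9 FPKM in CFA 6 and 20.8 FPKM in saline 1, against 4.99 to 10.7 FPKM in the other 9 libraries. These were the 3 libraries highest in Tac1 and Cartpt.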

How the data were processed

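Bulk RNA of lateral septum was sequenced in 6 CFA and 6 saline libraries, grouped by the labels' treatment. Reads were aligned with HISAT2 2.0.5 to mm10, per the submitters' processing notes. The authors deposited FPKM per gene and library, with the gene length in bases as another column, while the counter, annotation release and strand setting are not stated there, so sense and antisense reads cannot be told apart. In the deposited table no other gene overlaps the 10 precursors. FPKM times gene length fell in whole steps, from which reads were recovered, 100% of values within 0.01 read of a whole number, at 33.56 to 39.15 M reads per library. A further 6 columns of another table matched no sample and were not used.

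The filter of 1 FPKM in 6 or more libraries left 13345 genes. They were fitted in limma 3.58.1 (R 4.3.3), as log2 of FPKM plus a pseudocount of 1, with eBayes and a trend. Tests were two-sided, adjusted by Benjamini-Hochberg across these genes, and called at 0.05. Fold changes (CFA over saline) on this scale understate changes of low genes. The fit was tested on simulated data. Single genes also had an exact permutation test, two-sided, with no adjustment. Permutation tests of correlations used 100000 resamples for 12 libraries and all 40320 orders for 8. The members and gene lists were chosen with earlier results of these data known. Named genes were the 10 precursors, the 4 genes of each peptide list with the smallest unadjusted p, the most abundant tested receptor of each peptide, the 2 genes most like each precursor, and leading genes of the cell type lists. Ntsr2, Tacr1, Vipr1, Vipr2 and Gpr160 were added as receptors, and Trpc4, Slc17a7, Drd1, Cpe, Ttr and Xist to describe libraries or scale, after their values were seen. Alternatives covered the pseudocount, filter, scaling, voom, a replicate block, left-out libraries and covariates. Python 3.11.15, pandas 2.3.3, numpy 2.4.6, scipy 1.17.1 and matplotlib 3.10.9 were used. No library was treated as a repeat of another, since even the most alike (saline 4 and 6) had a chi-square per degree of freedom of 8.44.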

Additional observations from a re-analysis of the deposited data

Results flagged for a closer look

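In 1 of the 20 sets of 6 values (10 genes in 2 groups), 1 library stood apart by Dixon's test. Tac1 was at 14.7 FPKM in saline 1, against 2.7 to 5.04 FPKM in the other 5 saline libraries and the gap to the next was 0.662 of the group's range, past the 95% critical value. Chance alone flags about 1 set in 20. Saline 1 was also the saline library highest in Cartpt and in the striatal list mean.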

How the results depend on the processing

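None of the 10 precursors was called under any of the 24 alternatives, and their lowest adjusted p by limma was 0.318. Of 236 other values of these genes, 213 kept their direction and 23 reversed. Unadjusted limma p-values under 0.05 arose for Nts and Gal only. Nts had 0.00365 with the striatal covariate and 0.0171 without CFA 1. Gal had 0.00683 without CFA 6 and 0.0264 with the striatal covariate. Among all genes 4 were called, and 2 without the filter, 1 with the replicate block, 1 with Xist as a covariate, 1 in the libraries with Xist alone, 9 with the striatal covariate and 1 to 11 when 1 library was left out (1 without CFA 6 or saline 5, 2 without saline 2 or saline 4, 10 without CFA 1, 11 without saline 3). The cause was not tested. Over all alternatives the log2 fold change of Cck ran -0.88 to 0.028 and that of Tac1 0.042 to 1.32.

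Reversed log2 fold changes were small. Without saline 3 and saline 5, Npy was at -0.011 and Trh at -0.04. With Xist as a covariate Tac2 was at -0.091, Vip at 0.028 and Trh at -0.041, and in the libraries with Xist Tac2 was at -0.14. With the striatal covariate Npy was at -0.11, Cartpt at -0.16 and Tac2 at -0.049, and with the cortical one Vip was at 0.07. With 1 library left out, Sst ran -0.084 to 0.0038, Npy -0.087 to 0.29, Cck -0.8 to 0.028, Vip -0.23 to 0.14 and Tac2 -0.054 to 0.2, each crossing 0. Nts (-0.3 to -0.1), Gal (0.18 to 0.4), Tac1 (0.45 to 1.07), Cartpt (0.016 to 0.4) and Trh (0.0031 to 0.14) did not.

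Same-numbered libraries of both groups deviated together with correlations of -0.012 to 0.159, and 5 of 12 libraries correlated best with their own number. These values do not settle whether the numbers mark pairs, and the main fit did not take them as such. With the replicate block limma gave Tac1 0.76 (SE 0.34, unadjusted p = 0.0529, adjusted p = 0.633). Cartpt was then at 0.23 (SE 0.16, adjusted p = 0.772 by limma) and Sst at -0.042 (SE 0.08). A filter of 5 FPKM tested 6 of the 10 genes.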

Other observations

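Penk, the proenkephalin gene, was not among the genes named by rule and was chosen after its values were seen. It stood at 180, 107 and 91.3 FPKM in CFA 1, CFA 6 and saline 1, against 37.5 to 85.2 FPKM in the other 9 libraries, so its 3 highest libraries were those of Tac1, Cartpt and Pdyn. Penk averaged 84.1 ± 54.1 FPKM in CFA and 58.1 ± 17.2 FPKM in saline libraries, a log2 fold change of 0.35 (SE 0.33; limma, adjusted p = 0.853). Peptide genes of the hypothalamus and preoptic area, also chosen after their values were seen, were low and uneven. Oxt, the oxytocin precursor, ran 0.15 to 9.33 FPKM in CFA and 0.0513 to 7.72 FPKM in saline libraries, and Gnrh1, the gonadotropin-releasing hormone precursor, 0.755 to 4.16 FPKM in CFA and 1.29 to 7.52 FPKM in saline libraries. Kiss1, Ppy and Uts2b were listed at 0 in all 12 libraries.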
